A study of Drosophila melanogaster with 4 samples.

Results

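The pair-rule genes even-skipped (eve), fushi tarazu (ftz), odd-skipped (odd), paired (prd), runt (run), hairy (h, listed as hry in the annotation used for names), sloppy paired 1 and 2 (slp1, slp2) and odd-paired (opa) were chosen by name, and all 9 were present among the 17875 genes of the matrices. They were followed in 4 single-cell RNA-seq libraries of whole OregonR Drosophila embryos, a wild-type strain with no added treatment, with 2 libraries from stages 13-16 and 2 from stages 10-12. The 2 stage ranges cover organ formation after segmentation is complete, so the question is where genes of the early stripe pattern are expressed in the tissues that follow. Each library came from a pool of dissociated embryos with its own collection and sequencing date, so stage and date cannot be told apart. The p-values between the stages measure only the spread between 2 libraries a stage. Those of a cell type against the remaining cells measure the spread of that difference over 2 to 4 libraries. Where such a fit held 2 libraries, its p-value leaned on the spread of other genes. From an ordering of cells in salivary gland, trachea and germ cells, the paper reports that the collections of the later range differ in embryo age. Replicate 2 of stages 13-16 is the younger there, so age and scatter cannot be told apart in gaps between these 2 libraries. A level is the count of unique molecular identifiers (UMIs, each one captured RNA molecule) of a gene per 1000000 UMIs of the summed cells, written CPM.

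The pair-rule genes encode transcription factors that divide the early embryo into segments. In the blastoderm most of them are turned on in stripes, by gap gene proteins, maternal gradients or other pair-rule genes. The early stripes typically repeat in alternate segment-wide units, and the overlapping stripes then position the segment polarity genes such as engrailed and wingless. Eve and Ftz are homeodomain proteins, Odd and Opa are zinc finger proteins (Opa is the fly member of the Zic family), Run is the founding member of the Runt domain family, Hairy is a basic helix-loop-helix repressor that recruits Groucho, Prd carries a paired domain and a homeodomain, and Slp1 and Slp2 are forkhead proteins encoded by neighbouring genes. Several of these genes are known to be used again later: eve in a few identified neurons, heart-associated cells and the hindgut end, ftz and run in the nervous system, odd in heart-associated cells, and opa in the muscle of the midgut wall.

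In the release 6 assembly, ftz (FBgn0001077) lies on 3R from 6864324 to 6866244, and opa (FBgn0003002) on the same arm from 4852813 to 4869979, both on the forward strand. On 2L are odd (FBgn0002985, 3604224 to 3606756, reverse strand), prd (FBgn0003145, 12082995 to 12085827, reverse strand), slp1 (FBgn0003430, 3825675 to 3827099, forward strand) and slp2 (FBgn0004567, 3836840 to 3839185, forward strand). The run gene (FBgn0003300) is on X from 20690670 to 20697321 and h (FBgn0001168) on 3L from 8675759 to 8679253, both forward, and eve (FBgn0000606) is on 2R.

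After filtering, 23491 and 21353 cells were kept at stages 13-16 and 13141 and 7563 at stages 10-12 (replicates 1 and 2), with medians of 2364 and 8205, and 4507 and 2636 UMIs per cell. The deposited matrices held 186017099 and 394684653 UMIs at stages 13-16 and 160693359 and 71622535 at stages 10-12, and any 2 libraries shared 94 to 389 cell barcodes, at most 1.10% of the smaller one. The cells formed 126 clusters, of which 105 took one of 26 cell type names from marker genes. A name such as "neuron" below means neuron-like: the cluster led on markers of that type, and neither the pair-rule genes nor the comparison lists were used for clustering or naming. The remaining 10.8% to 17.1% of cells stayed unnamed. Droplets whose clusters had under 50 marker genes were removed, and their CPM is given beside each level as a background. They had medians of 1303 and 2316 UMIs at stages 13-16 and 1650 and 1510.5 at stages 10-12, and whether they hold free RNA or poor cells was not tested.

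Summed over all kept cells, ftz, run and slp2 were lower at stages 13-16 than at stages 10-12, and no pair-rule gene was called higher. ftz had 3.51 and 4.83 CPM at stages 13-16, against 16.9 and 14.4 CPM at stages 10-12. run had 19.3 and 25.8 CPM at stages 13-16, against 39.2 and 33.7 CPM at stages 10-12. slp2 had 22.5 and 34.4 CPM at stages 13-16, against 50.0 and 44.5 CPM at stages 10-12. For each of these 3 genes both libraries of stages 13-16 lay below both of stages 10-12, and fewer expressing cells and less RNA per cell cannot be told apart in such sums. In edgeR's quasi-likelihood test with Benjamini-Hochberg adjustment over all genes, ftz fell by 2.09 on the log2 scale (SE 0.24, adjusted p = 0.0176), slp2 fell by 0.92 (SE 0.19, adjusted p = 0.0311) and run fell by 0.88 (SE 0.16, adjusted p = 0.0274). These 3 of 9 members stand beside 20.2% of all 12068 genes tested that were called in either direction, so the number of calls among the members is not a result in itself. Without replicate 1 of stages 13-16 none of the 3 was called, and ftz then fell by 1.98 (adjusted p = 0.0526). Without replicate 1 or replicate 2 of stages 10-12, ftz alone was called, at -2.03 and -2.12.

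The other members had whole-embryo levels that were not called different. slp1 had 28.2 and 38.8 CPM at stages 13-16, against 45.6 and 41.5 CPM at stages 10-12, and missed the threshold (log2 change -0.57, SE 0.16, adjusted p = 0.0613). odd had 19.4 and 31.0 CPM at stages 13-16, against 35.5 and 25.1 CPM at stages 10-12, so its stages overlapped. h had 104 and 91.2 CPM at stages 13-16, against 89.5 and 82.6 CPM at stages 10-12. opa had 28.7 and 40.7 CPM at stages 13-16, against 31.2 and 22.2 CPM at stages 10-12. eve had 6.55 and 7.61 CPM at stages 13-16, against 6.62 and 4.33 CPM at stages 10-12. prd was counted only 75 and 469 times at stages 13-16, against 212 and 50 times at stages 10-12, which is 0.592 and 1.71 CPM against 1.67 and 0.914 CPM. All 9 genes were also present in the removed droplets, where odd was at 23.4 and 32.5 CPM at stages 13-16 and 38.3 and 32.7 CPM at stages 10-12, so a level in a cell type is read against them. h was lower in them than in the kept cells of every library, with 38.1 and 55.1 CPM at stages 13-16 and 46.8 and 48.4 CPM at stages 10-12.

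**Figure D1:**
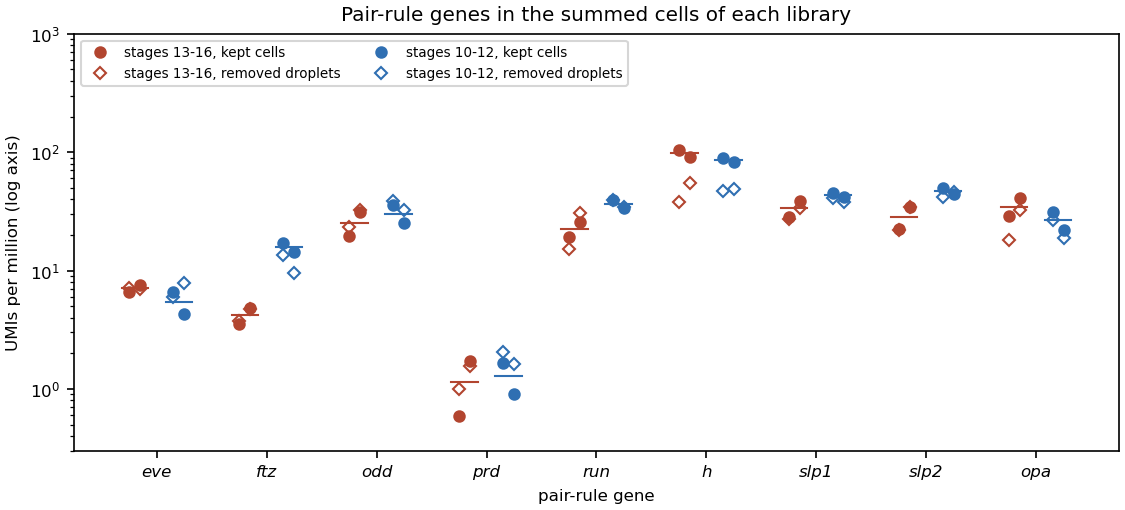
Level of each pair-rule gene in the summed kept cells (filled circles, lines at the mean) and in the removed droplets (open diamonds) of each library, in CPM on a log axis, with stages 13-16 in red left of stages 10-12 in blue. ftz lies at 3.51 and 4.83 at stages 13-16 and at 16.9 and 14.4 at stages 10-12, the widest gap between the stages among the 9 genes.

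The genes that act before, after or with them in the embryo, listed for comparison, were tested in the same fit. Of 6 gap genes, 4 were called lower at stages 13-16 and none higher: gt (log2 change -1.84), hkb (-1.43), hb (-1.21) and Kr (-1.13). Of 10 segment polarity genes, gsb alone was called, lower by -1.92 on the log2 scale. Among 9 paralogs and partners, gsb-n, a paralog of gsb, was called lower (-0.91) and ftz-f1 higher (2.79). ftz-f1 encodes the nuclear receptor that Ftz binds in the blastoderm, and its level was 6.29 and 15.3 CPM at stages 13-16, against 1.94 and 0.786 CPM at stages 10-12, opposite to that of ftz. The median log2 change was -0.45 for the pair-rule genes, -1.17 for the gap genes, -0.20 for the segment polarity genes and -0.16 for the paralogs and partners, beside 0.00 for all genes tested.

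Set against the remaining cells of the same library, the 9 genes were unevenly spread over the tissues. Of 234 combinations of gene and cell type, 33 were called higher in the cell type, where all genes gave 12.6%, and 103 lower, where all genes gave 18.1%. The median over the 234 was -1.06 on the log2 scale, while the median of all genes tested lay between -0.36 and -0.05 in each of the 26 cell types. Every member was called higher in at least 2 cell types: slp1 in 6, run and opa in 5 each, odd and slp2 in 4 each, eve in 3, and ftz, prd and h in 2 each. Bearded-rich ectoderm was named by a marker list of Enhancer of split and Bearded-family genes, which respond to Notch, with Obp99a. It had 6 members higher and neurons 5, against none in fat body, plasmatocytes, trachea, gut endoderm and primordium, and 10 other cell types. Of all genes tested, 1714 of 10689 were called higher in Bearded-rich ectoderm and 3078 of 11197 in neurons. In the cell types without a higher member these counts ran from 48 of 11448 in Malpighian tubules to 2799 of 10941 in gut endoderm and primordium. In some of these cell types few genes of any kind were thus called higher. The larger Bearded-rich cluster of stages 13-16, with 1549 cells, was led by Obp99a, CG4440, CG13427, link, Tom and Ocho, with no Enhancer of split gene among its 10 leading genes, and the other, with 929 cells, by E(spl)m4-BFM, Brd and BobA. slp1 was at 76.1 and 121 CPM in the larger and at 43.4 and 80.8 CPM in the other, and odd at 26.2 and 80.1 CPM and at 11.9 and 16.2 CPM. Of the 33, 28 could be tested with each of the 4 libraries left out in turn, and 23 of those 28 stayed called each time.

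**Figure D2:**
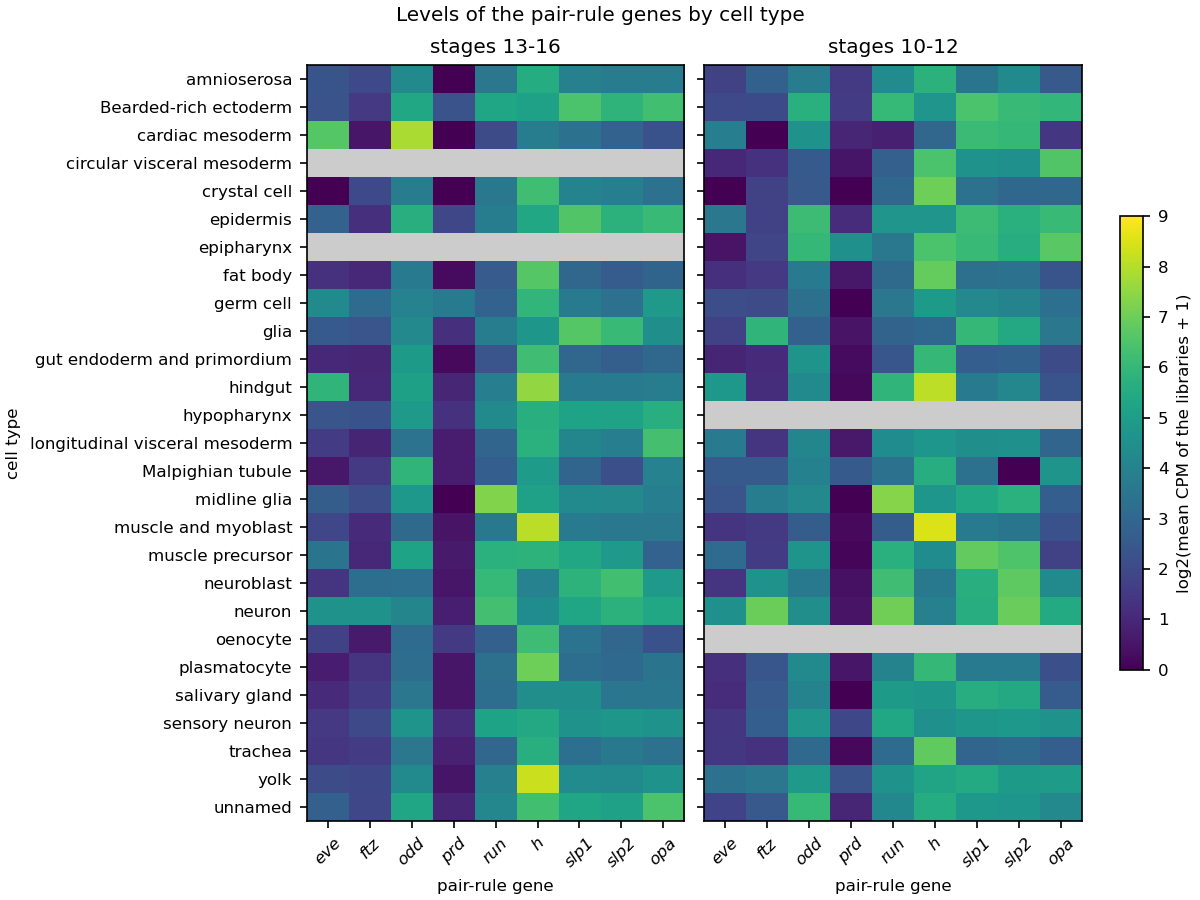
Level of each pair-rule gene by cell type, as log2 of the mean CPM of the libraries plus 1, for stages 13-16 on the left and stages 10-12 on the right. Grey rows are cell types named at 1 stage only, the last row holds the unnamed cells, and the bright fields include h in muscle and myoblasts, in hindgut and, at stages 13-16, in yolk, with odd in cardiac mesoderm at stages 13-16 and run in midline glia.

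ftz marked neurons at both stages, at a much lower level in the later ones. In neurons it had 19.7 and 26.3 CPM at stages 13-16, against 135 and 116 CPM at stages 10-12. The remaining cells had 1.71 and 2.21 CPM at stages 13-16 and 4.94 and 4.86 CPM at stages 10-12, and the removed droplets 3.71 and 4.77, and 13.4 and 9.59 CPM. Neurons were thus above both backgrounds in all 4 libraries, and ftz was 18.9-fold higher in neurons than in the remaining cells (log2 4.24, SE 0.29, adjusted p = 3.13e-05). Neurons carried 56.2% and 59.3% of all ftz UMIs at stages 13-16 and 73.6% and 69.2% at stages 10-12, while they held 8.64% to 10.9% of all UMIs. Between the stages, ftz in neurons fell by 2.67 on the log2 scale, 6.36-fold (SE 0.17, adjusted p = 0.00317).

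The fall in ftz was also seen in the share of cells, after each cell was thinned to 2000 UMIs. A ftz UMI was then found in 2.79% and 3.63% of neurons at stages 13-16 (exact 95% intervals 2.08% to 3.66% and 3.04% to 4.29%), against 16.4% and 12.5% at stages 10-12 (14.5% to 18.5% and 10.1% to 15.2%). In gut endoderm and primordium, where ftz served as background, the shares were 0.108% and 0.377% at stages 13-16 and 0.719% and 0.920% at stages 10-12, from cells with median depths of 2304 and 20613, and 16499 and 3150 UMIs before thinning. Before thinning, the shares in neurons were 5.01% and 10.3% at stages 13-16 and 24.8% and 16.0% at stages 10-12, at median depths of 2530 and 4360, and 3774 and 2609 UMIs. Such intervals cover counting error only. The clusters with the most ftz were neurons led by elav, nerfin-1, insb, Oli and tap, at 35.0 and 45.5 CPM at stages 13-16 and 211 and 164 CPM at stages 10-12.

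Neuroblasts, the neural stem cells, had 5.62 and 11.7 CPM of ftz at stages 13-16, against 23.1 and 24.4 CPM at stages 10-12. That was 2.01-fold above the remaining cells (adjusted p = 0.00187) and fell between the stages by 1.43 on the log2 scale (SE 0.30, adjusted p = 0.0232). Glia had 1.45 and 6.97 CPM at stages 13-16, against 74.8 and 41.0 CPM at stages 10-12, a fall of 3.50 (SE 0.49, adjusted p = 0.00704). In those glia the summed level of the 10 neuron markers was 1608 and 2764 CPM at stages 13-16 and 3697 and 1963 CPM at stages 10-12, with Syt1 at 0 in both libraries of stages 10-12, and that of the 6 neuroblast markers 266 and 412 CPM against 1706 and 1568 CPM. Their part in the ftz change in glia was not tested.

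run was higher in the midline glia, neurons, neuroblasts, Bearded-rich ectoderm and a group of mesoderm cells. Midline glia, which ensheath and guide the crossing axons, had 129 and 182 CPM of run at stages 13-16 and 209 and 116 CPM at stages 10-12, against 18.8 and 25.2, and 38.6 and 33.4 CPM in the remaining cells. The difference was 6.27-fold (log2 2.65, SE 0.21, adjusted p = 6.78e-13). The 10 neuron markers summed to 1048 and 1708 CPM in these midline glia at stages 13-16 and to 1956 and 919 CPM at stages 10-12, far below the 7814 to 11946 CPM in neurons. Neurons had 77.9 and 79.3 CPM of run at stages 13-16, against 122 and 139 CPM at stages 10-12, and the removed droplets 15.2 and 30.3, and 39.2 and 34.2 CPM. Neurons were 5.27-fold above the remaining cells (adjusted p = 2.06e-05), and within them run fell by 0.94 on the log2 scale between the stages (SE 0.20, adjusted p = 0.0207). Without replicate 2 of stages 13-16 or of stages 10-12 that fall was -0.71 and -0.78 and was not called (adjusted p = 0.0753 and 0.0754). With the replicate number as a block it was -0.94 and was not called either (adjusted p = 0.0567).

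Neuroblasts had 46.1 and 81.6 CPM of run at stages 13-16 and 92.0 and 57.4 CPM at stages 10-12, 2.81-fold above the remaining cells (adjusted p = 0.000103), so midline glia, neurons and neuroblasts were the top 3 cell types for run at both stages. The ranges of neurons and neuroblasts overlapped at stages 13-16, and those of midline glia and neurons at stages 10-12. Muscle precursors, cells led by Him and twist, averaged 1.94-fold above the remaining cells (adjusted p = 0.00626), but 1 cluster in them held the most run of any cluster at each stage when both libraries were summed. That cluster, led by Con, bap, stumps, disco and twi, had 138 and 210 CPM at stages 13-16 and 294 and 153 CPM at stages 10-12, where a neuron cluster had 166 and 199 CPM and so stood above it in replicate 2. bap is the homeobox gene that specifies the visceral mesoderm, and the other muscle precursor sub-clusters of stages 13-16 named as such had 0 to 55.1 CPM of run. At a clustering resolution of 2 in place of 4 the difference for muscle precursors was 0.34 and was not called (adjusted p = 0.437).

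In the hindgut, run had 9.56 and 17.2 CPM at stages 13-16, against 63.8 and 52.9 CPM at stages 10-12. The later hindgut was below the removed droplets (15.2 and 30.3 CPM) and the earlier above them (39.2 and 34.2 CPM). The fall was 2.02 on the log2 scale (SE 0.32, adjusted p = 0.0117), with 16 of 392 and 51 of 333 hindgut cells holding a run UMI at stages 13-16 and 55 of 282 and 8 of 68 at stages 10-12.

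eve was sparse in the embryo and concentrated in neurons, the hindgut and the cardiac mesoderm, each above the remaining cells. Neurons had 24.2 and 21.8 CPM at stages 13-16 and 29.1 and 15.2 CPM at stages 10-12, against 4.59 and 5.88, and 4.34 and 3.30 CPM in the remaining cells (5.33-fold, log2 2.41, SE 0.19, adjusted p = 5.17e-05). Only 77 of 2673 and 177 of 3729 neurons held an eve UMI at stages 13-16, and 76 of 1835 and 29 of 909 at stages 10-12, and up to 15 neurons in a library held 10 or more. The neuron cluster richest in eve at stages 13-16, led by shep, trv, nrv3 and Appl, had 100.0 and 46.3 CPM. At stages 10-12 a neuron cluster led by klg, chinmo and beat-Ia had 84.8 and 17.1 CPM, and one led by fne, chinmo and Hey had 44.4 and 43.9 CPM.

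The hindgut had 61.9 and 54.5 CPM of eve at stages 13-16 and 14.9 and 39.1 CPM at stages 10-12, against 5.76 and 6.12, and 6.41 and 4.05 CPM in the remaining cells. The difference of 2.74 on the log2 scale (SE 0.35, adjusted p = 0.00034) stayed called in every alternative run. At stages 13-16, 17 of 392 and 34 of 333 hindgut cells held all of it, 2 and 13 of them with 10 or more UMIs, and in a cluster led by otp, fkh, knrl, kni and hh eve reached 85.3 and 74.2 CPM. At stages 10-12 only 10 of 282 and 1 of 68 hindgut cells had an eve UMI, and in replicate 2 all 17 UMIs came from that 1 cell. The stage difference of eve in the hindgut was not called. Counts of eve sufficed for a test between the stages in 9 of 20 cell types, and none of these was called.

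The cardiac mesoderm, cells set apart within the muscle precursors by tin, Hand and tup, the heart-forming transcription factors, had few cells but high eve and odd. eve was at 24.0 and 169 CPM at stages 13-16, from 7 of 42 and 15 of 75 cells, and at 22.9 and 3.76 CPM at stages 10-12, where 1 cell of replicate 1 held 31 of 32 UMIs. Against the remaining cells eve was higher by 3.05 (SE 0.50, adjusted p = 0.00123). odd was at 248 and 213 CPM at stages 13-16, from 18 of 42 and 36 of 75 cells, and at 36.5 and 9.41 CPM at stages 10-12, against 18.5 and 30.3, and 35.5 and 25.3 CPM in the remaining cells. The difference over the libraries with at least 20 such cells was 2.37 (SE 0.51, adjusted p = 0.00702), and without the Harmony correction 1.56 (adjusted p = 0.102). With a library left out the value for odd lay between 1.58 (without replicate 1 of stages 13-16) and 3.29 (without replicate 1 of stages 10-12). That for eve lay between 1.86 (without replicate 2 of stages 13-16) and 3.85 (without replicate 1 of stages 10-12). With no doublets removed, odd was at 0.99 and eve at 1.61, and all of these were called. Replicate 2 of stages 10-12 had 18 cardiac cells and was left out of both fits, so the difference of odd between the stages had no test. The 7 cardiac markers summed to 1836 and 3122 CPM at stages 13-16 and to 1350 and 914 CPM at stages 10-12, and they were all above 0 except prc in replicate 2 of stages 10-12. In the same cells ftz, run, h and opa were each called lower than in the remaining cells, as were 1439 of all 11234 genes tested.

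odd was also an ectodermal gene at both stages. The epidermis had 44.3 and 57.1 CPM at stages 13-16 and 85.1 and 56.2 CPM at stages 10-12, all above the removed droplets (3.10-fold above the remaining cells, log2 1.63, SE 0.10, adjusted p = 0.000112). Bearded-rich ectoderm had 21.7 and 60.6 CPM at stages 13-16 and 68.5 and 35.7 CPM at stages 10-12 (1.82-fold, adjusted p = 0.0075), and only replicate 1 of stages 13-16 was below its removed droplets (23.4 CPM). The Malpighian tubules, the excretory organs, had 63.0 and 52.7 CPM of odd at stages 13-16, above the removed droplets (23.4 and 32.5 CPM), but the difference from the remaining cells was not called over the 3 libraries that held them. In replicate 2, 1 of 139 tubule cells held 36.4% of the 330 odd UMIs. At stages 13-16 the cardiac mesoderm stood above the tubules without overlap, while the tubules and the epidermis overlapped. Among clusters of stages 10-12 the most odd was found in an unnamed group led by svp, srp, Him and zfh1, genes of heart-associated and fat body mesoderm, with 117 and 126 CPM.

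Over the 126 clusters, the genes whose levels followed odd most closely were sob (r = 0.79) and drm (r = 0.77), its neighbours and paralogs in the odd-skipped family. Inx3 came next (r = 0.67). This is a description over clusters that share 4 libraries and differ in depth, as for every correlation given here. Most like eve were dan (r = 0.57), otp (0.55) and Lmx1a (0.54). For ftz they were tap (0.78), Oli (0.73) and nerfin-1 (0.73), and for run CG9135 (0.66), bsk (0.65) and Map60 (0.64). Of these, otp and nerfin-1 were among the markers used for naming.

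prd was the member counted least, and its largest called difference from the remaining cells was in the epipharynx. The epipharynx, the roof of the developing mouth, was named only at stages 10-12 and had 30.3 and 13.9 CPM of prd, against 0.811 and 0.599 CPM in the remaining cells and 2.07 and 1.62 CPM in the removed droplets. These were 112 and 18 UMIs in 18 of 304 and 3 of 120 cells, and the difference was 31.7-fold (log2 4.99, SE 0.50, adjusted p = 5.1e-22). Only the libraries of stages 10-12 entered this fit, so its small p-value leaned on the spread of other genes. The call depends on how the cells are clustered: with no doublets removed the difference was 3.02 (adjusted p = 0.0529), and without the Harmony correction it was -0.63, where the cells under that name were chosen by other clusters. The epidermis had 1.09 and 4.41 CPM of prd at stages 13-16 and 1.45 and 1.01 CPM at stages 10-12, from 12 and 184, and 20 and 4 UMIs, and was not called (log2 1.09, SE 0.47, adjusted p = 0.0921). The 184 UMIs were 39.2% of all prd UMIs of that library, and 165 of them came from a single cluster of 718 epidermal cells led by CG13362, Obp56a and nw, with 2.58 and 21.8 CPM. The genes most like prd over clusters were bard (r = 0.55), pb (r = 0.48) and Dfd (r = 0.48), the last 2 being Hox genes of the mouth segments. In Bearded-rich ectoderm prd had 2.85 and 4.94 CPM at stages 13-16 and 1.35 and 2.78 CPM at stages 10-12 (2.98-fold, adjusted p = 0.0388). That call was lost without replicate 2 of stages 13-16 (log2 1.47), without replicate 1 of stages 13-16 (1.27), without replicate 2 of stages 10-12 (1.39) and without 3 cells of replicate 2 of stages 13-16 (1.32), 1 of which was a Bearded-rich cell with 35 prd UMIs.

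**Figure D3:**
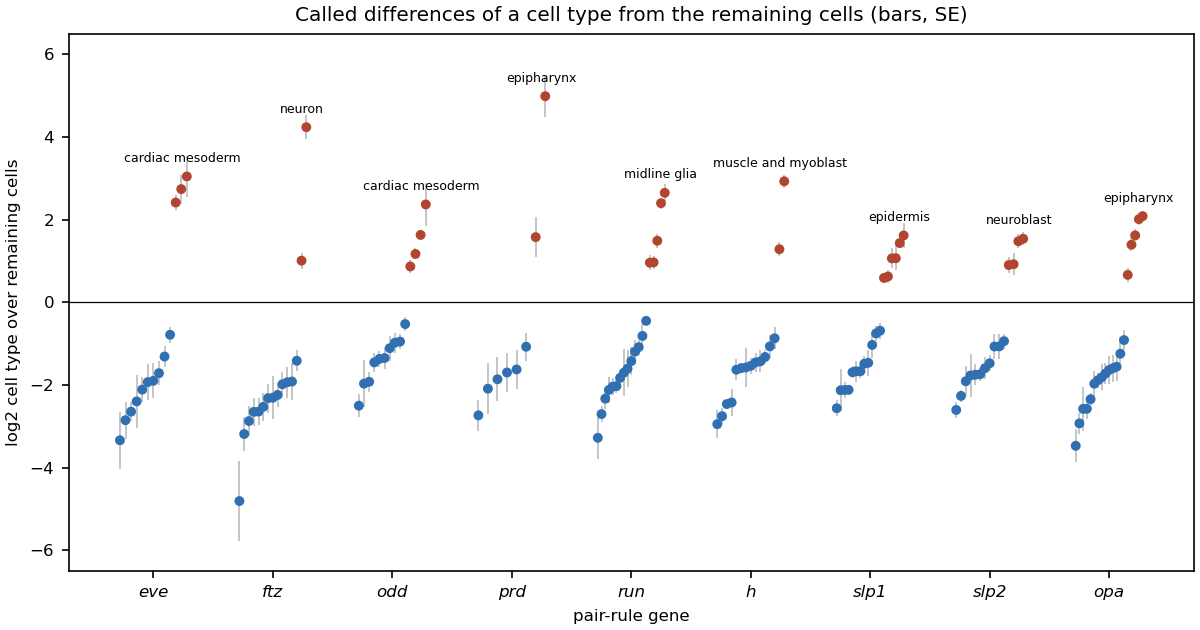
Each point is a cell type in which a pair-rule gene was called different from the remaining cells, as log2 of the cell type over the remaining cells, with bars for the SE, red above 0 and blue below. The cell type at the top is named for each gene, from prd in epipharynx at 4.99 to slp2 in neuroblasts at 1.54.

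slp1 and slp2, the neighbouring forkhead genes, had nearly the same pattern. Over the 126 clusters their levels had r = 0.90, the highest of the 36 pairs of members, where the next was run with slp2 at 0.60 and the lowest h with slp2 at -0.51. In cells thinned to 2000 UMIs, 15.7% and 21.3% of the cells with slp1 also had slp2 at stages 13-16 and 24.2% and 23.0% at stages 10-12. Of all thinned cells, 4.02% and 5.91% had slp2 at stages 13-16 and 7.14% and 7.44% at stages 10-12. Most cells with one of the genes thus showed no UMI of the other at this depth. The genes most like them were eya, gsb and btd for slp1 (r = 0.67 to 0.68), and gsb-n (r = 0.75), gsb (0.71) and Sp1 (0.69) for slp2. The segment polarity gene gsb and its paralog gsb-n encode a paired domain, as prd does.

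slp1 was high in epidermis, Bearded-rich ectoderm and glia at stages 13-16 and in muscle precursors at stages 10-12. The epidermis had 97.4 and 87.2 CPM of slp1 at stages 13-16 and 85.9 and 54.7 CPM at stages 10-12, against 21.6 and 30.1, and 40.7 and 40.5 CPM in the remaining cells (3.07-fold, adjusted p = 0.00486). Glia had 56.4 and 138 CPM at stages 13-16 and 59.1 and 67.3 CPM at stages 10-12 (2.09-fold, adjusted p = 0.0147). Bearded-rich ectoderm had 65.9 and 109 CPM at stages 13-16 and 104 and 71.5 CPM at stages 10-12 (2.70-fold, adjusted p = 0.000575). At stages 13-16 the ranges of these 3 cell types overlapped.

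In muscle precursors both genes fell between the stages. slp1 had 34.5 and 47.0 CPM there at stages 13-16, against 114 and 111 CPM at stages 10-12, a fall of 1.52 on the log2 scale (SE 0.19, adjusted p = 0.00488). slp2 had 13.8 and 40.6 CPM at stages 13-16, against 85.9 and 97.3 CPM at stages 10-12, a fall of 1.79 (SE 0.38, adjusted p = 0.0187). Both stages kept apart for both genes, and the later levels lay around those of the removed droplets, at 27.2 and 33.5 CPM for slp1 and 22.2 and 34.6 CPM for slp2. In the same cells the 6 somatic muscle markers summed to 2073 and 2836 CPM at stages 13-16 and 972 and 602 CPM at stages 10-12, and the 6 muscle precursor markers to 2152 and 2082 CPM against 1856 and 1667 CPM. Their part in the falls was not tested. At stages 10-12 slp1 was 232 CPM in a sub-cluster led by jeb, Ilp4, Six4, gsb and caup and 26.5 CPM in the sub-cluster rich in run. Over both stages slp1 was 2.09-fold above the remaining cells in muscle precursors (adjusted p = 0.027), a call that was lost without replicate 1 of stages 10-12 (log2 0.87) and without replicate 2 of stages 10-12 (0.78).

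slp2 was called higher in neurons, where slp1 was not. Neurons had 52.5 and 56.2 CPM of slp2 at stages 13-16, against 124 and 118 CPM at stages 10-12, a fall of 1.37 on the log2 scale (SE 0.17, adjusted p = 0.00643), and were 2.78-fold above the remaining cells (adjusted p = 0.000276). Neuroblasts had 43.1 and 112 CPM at stages 13-16 and 122 and 95.6 CPM at stages 10-12, 2.90-fold above the remaining cells (adjusted p = 5.52e-05). slp1 in neurons had 39.8 and 35.7 CPM at stages 13-16 and 47.6 and 48.2 CPM at stages 10-12, near the removed droplets (27.2 and 33.5, and 41.3 and 37.7 CPM), and was not called there. Whether the difference between slp1 and slp2 in neurons exceeds chance was not tested. slp2 was 1.90-fold above the remaining cells in epidermis (adjusted p = 0.0276). That call was lost without replicate 1 of stages 13-16 (log2 0.67), without replicate 2 of stages 13-16 (0.65) and without replicate 1 of stages 10-12 (1.07). The 1.87-fold difference of slp2 in Bearded-rich ectoderm (adjusted p = 0.0105) was lost without replicate 2 of stages 13-16 (0.75), and so was the 1.54-fold difference of slp1 in neuroblasts (adjusted p = 0.00769, then 0.46).

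**Figure D4:**
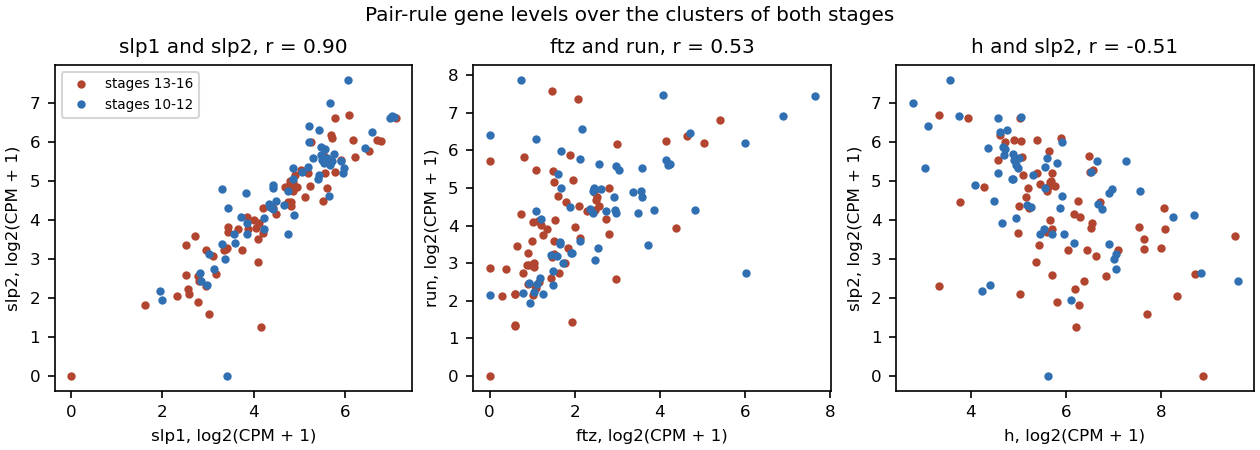
Levels of 3 pairs of pair-rule genes over the 126 clusters, in log2(CPM + 1), with clusters of stages 13-16 in red and of stages 10-12 in blue. slp1 and slp2 lie along a line (r = 0.90), ftz and run are high together in a few clusters (r = 0.53), and h runs against slp2 (r = -0.51).

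h was called higher in muscle and hindgut, and lower in neurons, neuroblasts, glia and epidermis. Muscle and myoblasts had 276 and 257 CPM at stages 13-16 and 379 and 347 CPM at stages 10-12, against 58.5 and 64.8, and 52.4 and 37.8 CPM in the remaining cells. The difference was 7.62-fold (log2 2.93, SE 0.16, adjusted p = 2.59e-05) and stayed called in every alternative run. These cells held 55.5% and 38.7% of all h UMIs at stages 13-16 and 48.1% and 60.9% at stages 10-12. After thinning to 2000 UMIs, 27.2% and 33.5% of muscle cells and myoblasts had an h UMI at stages 13-16 and 44.7% and 36.4% at stages 10-12. The same shares in neurons were 3.90% and 5.27% at stages 13-16 and 2.68% and 3.38% at stages 10-12. Before thinning, the muscle shares were 31.4% and 64.1% at stages 13-16 and 61.5% and 55.0% at stages 10-12, at median depths of 2185 and 9618, and 9691 and 6789 UMIs. The cluster with the most h at stages 10-12, led by Act57B, sls, sns and Mef2, had 772 and 777 CPM. The genes most like h over clusters were CG32638 (r = 0.70), Vrp1 (0.69) and sug (0.68). Vrp1 encodes the verprolin that myoblast fusion requires, and it was itself among the markers used for naming.

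The other 8 members were each called lower in muscle and myoblasts than in the remaining cells, where 3448 of all 11090 genes tested were called lower. The hindgut had 169 and 198 CPM of h at stages 13-16 and 314 and 232 CPM at stages 10-12, against 103 and 87.8, and 83.6 and 81.4 CPM in the remaining cells (2.44-fold, adjusted p = 0.00035). Neurons had 18.2 and 21.2 CPM at stages 13-16 and 13.7 and 14.6 CPM at stages 10-12, below the removed droplets (38.1 and 55.1, and 46.8 and 48.4 CPM) in every library.

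3 cell types had called higher h at stages 13-16. The yolk cells, which feed the embryo, had 158 and 466 CPM at stages 13-16, against 39.7 and 35.1 CPM at stages 10-12, 8.60-fold higher (log2 3.10, SE 0.52, adjusted p = 0.00169). In replicate 1 of stages 13-16, 134 of the 215 h UMIs of yolk came from a cluster of 23 cells found in that library alone, at 747 CPM, and the other yolk cluster had 68.7 and 466 CPM. The 7 yolk markers in these cells also summed to more at stages 13-16, at 4199 and 14155 CPM against 945 and 2497 CPM, as did the 6 somatic muscle markers, at 787 and 1967 CPM against 584 and 472 CPM, and their part in the h difference was not tested. Muscle precursors had 56.1 and 56.1 CPM of h at stages 13-16, against 21.1 and 18.2 CPM at stages 10-12 (log2 1.46, SE 0.21, adjusted p = 0.00657), where the somatic muscle markers moved as given above for slp1. Glia had 20.2 and 32.4 CPM at stages 13-16, against 7.48 and 6.57 CPM at stages 10-12, all below the removed droplets, and that call (log2 1.99, adjusted p = 0.0184) was lost without replicate 1 of stages 10-12 (2.02, adjusted p = 0.126).

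opa was found in ectoderm, mouth and the muscle layer of the gut. The circular visceral mesoderm, the inner muscle layer of the midgut, was named only at stages 10-12 and had 95.3 and 92.4 CPM of opa, against 29.4 and 20.6 CPM in the remaining cells (4.03-fold, log2 2.01, SE 0.15, adjusted p = 1.5e-38). Only the libraries of stages 10-12 entered this fit, so its small p-value leaned on the spread of other genes. One of its clusters, led by bru3, Hand, Con, Fas3 and org-1, had 153 and 171 CPM. At stages 13-16 the most opa was in an unnamed cluster of 556 cells, with 211 and 309 CPM, which was led by disco-r, bru3 and org-1 together with the contractile genes Mlc2, Tm2 and wupA, so its visceral and pharyngeal muscle markers did not decide between the names. Unnamed cells carried 43.1% and 22.2% of all opa UMIs at stages 13-16. The gene most like opa over clusters was Fas3 (r = 0.69), an adhesion protein of the circular visceral mesoderm and of epithelia, and Fas3 was itself among the markers used for naming. After it came kune (0.67) and ths (0.66).

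In the longitudinal visceral mesoderm, the outer gut muscle layer, opa differed between the 2 libraries of stages 13-16. It had 7.70 CPM in replicate 1 and 155 CPM in replicate 2, where 77 of 277 cells held an opa UMI, against 2.14 and 11.2 CPM at stages 10-12. In these cells the 6 somatic muscle markers summed to 5275 and 15049 CPM at stages 13-16 and to 2527 and 660 CPM at stages 10-12. The 8 circular visceral mesoderm markers summed to 5771 and 7184 CPM at stages 13-16 and to 2822 and 760 CPM at stages 10-12, with CG4393 at 0 in both libraries and Galphao at 0 in replicate 2 of stages 10-12. The part of either marker list in the opa level was not tested.

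The epipharynx had 112 and 91.9 CPM of opa (4.24-fold above the remaining cells, adjusted p = 1.4e-59), with the same dependence on clustering as prd: log2 0.75 with no doublets removed and -0.06 without the Harmony correction. Its fit held only the libraries of stages 10-12, so this p-value also leaned on the spread of other genes. The epidermis had 56.6 and 74.2 CPM at stages 13-16 and 86.2 and 48.1 CPM at stages 10-12 (3.07-fold, adjusted p = 0.000267), and Bearded-rich ectoderm 43.3 and 111 CPM and 72.2 and 49.9 CPM (2.63-fold, adjusted p = 0.00119). Neurons had 35.2 and 46.1 CPM at stages 13-16 and 45.5 and 44.2 CPM at stages 10-12 (1.58-fold, adjusted p = 0.0128). Muscle precursors had 3.88 and 8.38 CPM at stages 13-16 and 3.46 and 1.34 CPM at stages 10-12 (log2 -2.93, SE 0.25), below the removed droplets throughout.

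Within cell types, 13 of 134 tested combinations of member and cell type were called between the stages. The 5 called higher at stages 13-16 stand beside 10.4% of all tests over all genes, and the 8 called lower beside 4.30%. The median over the 134 was -0.03 on the log2 scale, and that of all genes lay between -0.02 and 0.08 in each of the 20 cell types. The 8 lower calls were the 3 of ftz, those of run in hindgut and neurons, that of slp1 in muscle precursors and those of slp2 in muscle precursors and neurons, and 7 of them stayed called with each library left out in turn. The 5 higher calls were the 3 of h and those of run and opa in muscle and myoblasts. run had 8.48 and 14.7 CPM in muscle and myoblasts at stages 13-16, against 6.88 and 3.66 CPM at stages 10-12 (log2 1.12, adjusted p = 0.0444). opa had 8.14 and 14.2 CPM there at stages 13-16, against 4.58 and 3.03 CPM at stages 10-12 (log2 1.53, adjusted p = 0.0149). Both genes were below the removed droplets in all 4 libraries, where run had 15.2 and 30.3 CPM at stages 13-16 and 39.2 and 34.2 CPM at stages 10-12, and opa 18.1 and 32.1, and 26.9 and 18.8 CPM. The run call was lost without replicate 2 of stages 13-16 (0.85), without replicate 2 of stages 10-12 (0.74) and with the replicate number as a block (1.13, adjusted p = 0.0749).

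**Figure D5:**
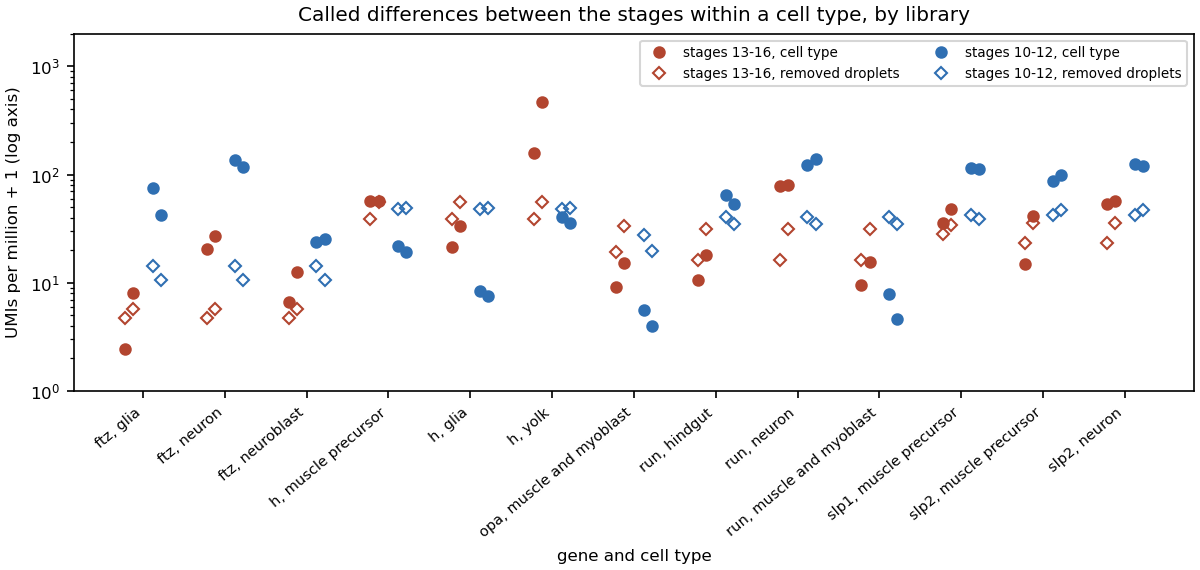
Levels in each library for the 13 called differences between the stages within a cell type, as CPM plus 1 on a log axis, with stages 13-16 in red left of stages 10-12 in blue and the removed droplets as open diamonds. ftz, run and slp2 in neurons lie above their removed droplets at both stages, while run and opa in muscle and myoblasts lie below them.

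Whether a cell type changed differently from the remaining cells between the stages was tested as the interaction of cell type and stage. It was called for 21 combinations of member and cell type, beside 3.18% of all such tests over all genes. The median over the 180 combinations tested was 0.48 on the log2 scale. That of all genes lay between -0.05 and 0.49 in each of the 20 cell types. ftz in neurons fell by 1.30 on the log2 scale more than in the remaining cells (SE 0.17, adjusted p = 0.0014). In muscle precursors slp1 (-1.45, adjusted p = 0.000648) and slp2 (-1.29, adjusted p = 0.0165) moved down and h moved up (1.30, adjusted p = 0.00202) relative to the remaining cells, and h moved up in yolk (2.81, adjusted p = 2.15e-08). These 5, together with run in muscle and myoblasts (2.14), were the 6 of the 21 that stayed called with each library left out in turn.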

How the data were processed

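Whole OregonR embryos were dissociated and profiled with a droplet single-cell kit. The values are raw UMI counts per gene and cell, deposited by the authors as made with Cell Ranger 6.1.2 on the release 6 fly genome. Seurat, which their processing notes also name, was not used here. Barcodes with at most 25% mitochondrial counts were clustered per library (2000 variable genes, 30 principal components, resolution 0.8). Clusters with under 50 marker genes were removed, and doublets by their share of simulated neighbours (0.008 per 1000 cells), at 6.47% to 25.1% of cells. Kept cells were clustered per stage after Harmony (resolution 4) and named by marker lists, with a score of at least 0.75 and 3 markers, limits set after the clusters were seen. Muscle precursors were clustered again, and sub-clusters with cardiac markers set apart, a choice made after those markers were seen. The pair-rule and comparison lists stayed out of the variable genes.

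UMI counts were summed per library and cell type (at least 20 cells) and tested with edgeR 4.0.16 (quasi-likelihood, TMM, low counts filtered) in R 4.3.3, adjusted by the Benjamini-Hochberg method over all genes and called at an adjusted p under 0.05. The model had stage as its term between the stages, and library as a block within libraries. The replicate number pairs nothing by the labels: the deviations of samples with the same number had a correlation of -0.27 over 12068 genes. Alternatives included DESeq2 1.42.0, no filter, library-size scaling, each library left out, other clusterings and every deposited barcode. The tests were run on simulated counts with the same dispersion for all genes. That checked the size and recovery of known changes and set no limit on false calls. The genes named are the 9 members, with calls given by size, and the 3 genes most like each over clusters that reached 10 CPM in a cluster. The members and lists were chosen with earlier results of these data known. Shares of cells were compared after thinning to 2000 UMIs, which left out 8702 and 527 cells at stages 13-16 and 2879 and 2040 cells at stages 10-12. Of 17875 genes, 17800 had a symbol.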

Additional observations from a re-analysis of the deposited data

Results flagged for a closer look

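For 21 combinations of pair-rule gene and cell type, the difference between the stages in the cell type was unlike that in the remaining cells, by the interaction of cell type and stage in edgeR. Values are log2 differences, stages 13-16 minus stages 10-12, of the cell type over the remaining cells, and no explanation of them was tested. In glia they were -1.69 for ftz, 2.10 for odd, 1.93 for run, 1.82 for h and 1.45 for slp2, and each of these 5 was lost when 1 of at least 2 libraries was left out. In muscle and myoblasts the median of all genes tested was 0.38, with 1842 of 11090 called higher and 233 lower. The members there had 1.38 for ftz, 1.08 for odd, 2.14 for run, -0.56 for h, 1.17 for slp2 and 1.46 for opa. Of these, only that of run stayed called without each library in turn. In muscle precursors the values were 1.30 for h, -1.45 for slp1 and -1.29 for slp2. In neurons they were -1.30 for ftz and -0.76 for opa, and in trachea -1.31 for h and 1.34 for slp2. In the hindgut run had -1.41, and in yolk h had 2.81.

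In longitudinal visceral mesoderm the median of all genes tested was 0.49. The value for opa there, 4.00, was the furthest from 0 of the 21. It was lost without replicate 2 of stages 13-16, the library with 155 CPM of opa there, against 7.70 CPM in replicate 1, and then was 1.01. DESeq2 gave 2.82 and no call for it.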

How the results depend on the processing

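Between the stages in the whole embryo 3 genes were called, against 1 with library-size scaling, which shifted the median of all genes to 0.18, 1 with the replicate number as a block, and 0 to 3 with a library left out. Within cell types 13 were called, against 21 with no filter on low counts, 28 with no doublets removed, 15 with the replicate block and 14 to 24 with a library left out. The same numbers share no origin in the labels, and crossing them, an alternative chosen after seeing the data, gave 3 calls in the whole embryo and 23 within cell types. Against the remaining cells 136 were called, against 81 with no library block and 115 to 131 with a library left out. For the difference between the stages against the remaining cells, whose alternatives were all chosen after seeing the data, 21 were called, against 13 by DESeq2 and 13 to 35 with a library left out. The other alternatives kept each count within 1.5 times.

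Directions turned for 2 genes in the whole embryo, neither called: prd, which ranged between -1.13 and 0.14 with a library left out and was 0.06 without replicate 1 of stages 10-12, and h, which ranged between -0.20 and 0.25 and was -0.0052 over every deposited barcode. Without the Harmony correction slp1 in circular visceral mesoderm was 0.0077, prd in epipharynx -0.63 and opa in epipharynx -0.056. slp1 in the whole embryo was called by DESeq2 (adjusted p = 0.0265) and over every deposited barcode (adjusted p = 0.0408). The cause of these changes was not tested. Circular visceral mesoderm and epipharynx without either library of stages 10-12, and hypopharynx and oenocytes without either library of stages 13-16, leave 1 library and were not fitted. prd and eve, with 50 to 469 and 237 to 2093 UMIs in a library, are limited most by depth.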

Other observations

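In replicate 2 of stages 13-16, 3 cells held several pair-rule genes at high counts together. They were chosen after their values were seen, by h and opa with eve, ftz or prd at high counts, and the other 3 libraries held 0 such cells. One, in a germ cell cluster, had 96 UMIs of eve, 74 of prd, 77 of h, 56 of opa and 32 of the gap gene gt among 62363 UMIs, with ftz, odd and run at 0. Another of that cluster had 22 of ftz, 27 of odd, 21 of h and 53 of opa among 152021 UMIs, with eve at 0. The third, in Bearded-rich ectoderm, had 35 of prd, 20 of h, 16 of the gap gene Kr, 10 of opa and 7 of eve among 26963 UMIs. Germ cells of that library had 32.8 CPM of eve with these cells and 2.07 CPM without them, and 24.8 CPM of prd with them and 0.691 CPM without them.

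At stages 13-16, 1 cell of replicate 1 and 40 cells of replicate 2 held 3 or more pair-rule genes at 10 or more UMIs each. At stages 10-12 there were 18 such cells in replicate 1 and 4 in replicate 2. Their median depths were 30595 and 102998 UMIs at stages 13-16 and 38468 and 72248.5 UMIs at stages 10-12, against 2364 and 8205, and 4507 and 2636 UMIs over all kept cells.

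At stages 13-16 the unnamed clusters with the most opa were 3 groups rich in muscle genes, at 211 and 309 CPM (556 cells), 198 and 79.4 CPM (348 cells) and 98.6 and 135 CPM (200 cells). The unnamed cluster with the most odd at stages 13-16, led by bnb, yellow-e3, CG13427 and caup, had 34.4 and 121 CPM.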
